A study of Homo sapiens and Mus musculus with 33 samples.

Results

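The genes described here were followed through all measurements of the study: BDH1 and ACAT1, which make enzymes of ketone body metabolism, CPT1A and PDK4, which steer fuel use in mitochondria, the nuclear receptors PPARA and PPARG, their coactivator PPARGC1A, and the secreted lipase inhibitor ANGPTL4. They were chosen by name among the 35805 genes of the human RNA table, and by the mouse spelling among the 25965 genes of the mouse RNA table, and all 8 were found in both. Every ChIP-seq peak in the gene interval or within 2 kb of it was counted as a peak of the gene. This gave 19 of 40266 peaks in the human cells, and in mouse colon 22 of 30338 peaks of histone H3 lysine 18 crotonylation (H3K18cr) and 11 of 27035 peaks of H3 lysine 4 trimethylation (H3K4me3). A peak was called a start peak where it overlapped a window of 1 kb either side of the first base of an annotated protein-coding transcript.

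The study mapped H3K18cr, a histone mark that is chemically close to acetylation, in intestinal cells. Colon epithelium was taken from the colons of male C57BL/6 mice, whose age is not given in the sources used here. RNA came from 3 mice, H3K18cr was read in 2 libraries with 2 input libraries (chromatin without an antibody), and H3K4me3, a mark of active gene starts, in 3 libraries with 1 input. According to the methods 3 colons were pooled for 3 ChIP experiments, so that ChIP libraries may share animals. HCT116, a human colon carcinoma line (1 line, thus 1 genotype), received 5 µM MS275 or the same amount of the solvent DMSO for 18 h in medium with glucose and pyruvate. MS275 (entinostat) inhibits class I histone deacetylases. For RNA the methods name 4 biological replicates. For HCT116 ChIP they name biological and technical replicates only where the qPCR is described. For the sequencing of HCT116 H3K18cr they name 2 replicates of unstated kind, while the legend of the paper's figure gives n = 3, the number of libraries used here. The ChIP p-values therefore measure the spread between these libraries, which may be technical. HCT116 gave 4 RNA libraries, 3 H3K18cr and 3 H3K18 acetylation (H3K18ac) libraries and 1 input for each treatment.

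Colonocytes burn fatty acids, above all the butyrate that gut bacteria make, and can turn acetyl-CoA into ketone bodies. Long-chain fatty acids enter mitochondria through CPT1A, and beta-oxidation shortens them to acetyl-CoA. In ketogenesis, thiolases such as ACAT1 join acetyl-CoA units, and at the end of the pathway BDH1 reduces acetoacetate to beta-hydroxybutyrate, a reversible step. PDK4 switches off pyruvate dehydrogenase and thereby spares glucose carbon. PPARA and PPARG are receptors for fatty acids that bind DNA together with RXR at repeats of AGGTCA, and CPT1A, PDK4 and ANGPTL4 are textbook PPAR targets.

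Of the deposited counts, RNA libraries held 8166406 to 10707901 reads in colon and 35608533 to 53415604 in HCT116. Reads in peaks, without the scaling of the table, ranged from 2236551 to 5730094 in the HCT116 ChIP libraries and from 1105419 to 3451663 in the colon ChIP libraries. The HCT116 RNA libraries numbered 3 stood apart: their 10 most counted genes took 10.3% (DMSO) and 10.8% (MS275) of reads, against 5.22% to 5.82% in the others. Epithelial markers (EPCAM, keratins and others, 8 of 8 names in the tables) summed to 8818 to 10362 CPM (counts scaled to the library total) in colon and 3775 to 5851 CPM in HCT116. In this list VIL1 was at 561 to 614 CPM in colon but at 0 to 1.28 CPM in HCT116. CDX2 was at 411 to 508 CPM in colon and 14.5 to 24.6 CPM in HCT116. Absorptive colonocyte markers (6 of 8 names in each species) summed to 2130 to 3115 CPM in colon but to 0.562 to 3.75 CPM in HCT116, where CA1, SLC26A3 and GUCA2A had no read in any library. Goblet cell markers summed to 15008 to 22144 CPM in colon, more than those of absorptive colonocytes, and to 0.501 to 6.47 CPM in HCT116. The colon samples are thus epithelium with goblet cells as well as colonocytes, whereas HCT116 carried EPCAM and keratins, had VIL1 near 0 and had the defining genes of both types at or near 0.

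The sequences before the human gene starts are given first, because the peaks of BDH1, PPARG, ANGPTL4 and CPT1A are read against them. All are the 250 bases upstream of a RefSeq start (GRCh38.p14), 5′ to 3′ on the strand of the gene. RefSeq promoter entries of 300 bases (250 before and 50 after the start) were found for all 8 genes, 17 entries in all. The outer start of BDH1 and an internal start are shown with each CG dinucleotide in capitals, since only the internal start lay under a peak in HCT116.
BDH1 outer start, chr3:197573344-197573593, minus strand: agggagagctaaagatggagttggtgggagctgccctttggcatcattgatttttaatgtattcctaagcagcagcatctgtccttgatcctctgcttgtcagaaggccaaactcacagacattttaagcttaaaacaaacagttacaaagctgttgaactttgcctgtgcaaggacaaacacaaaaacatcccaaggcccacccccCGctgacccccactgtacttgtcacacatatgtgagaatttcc
BDH1 internal start, chr3:197555969-197556218, minus strand: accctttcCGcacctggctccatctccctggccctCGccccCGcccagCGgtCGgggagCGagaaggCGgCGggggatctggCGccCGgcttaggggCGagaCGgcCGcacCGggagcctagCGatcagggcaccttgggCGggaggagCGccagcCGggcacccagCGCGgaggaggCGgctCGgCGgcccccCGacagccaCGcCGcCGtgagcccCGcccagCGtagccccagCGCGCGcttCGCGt
In the 300-base windows the outer start of BDH1 had 1 CG and the internal start had 39, where the median over 35116 RefSeq promoters was 14. In mouse the corresponding windows, read from GRCm38.p6, held 7 CG at the outer start of Bdh1 and 17 at the internal start under the colon peaks. In the 250 upstream bases alone the mouse counts were 6 and 7, against 1 and 34 in human. No background of mouse promoters was computed.

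The next pair is shown for motifs, in capitals: the hexamer AGGTCA that PPAR and RXR share with other nuclear receptors, and the TATA sequence TATAAA.
PPARG, chr3:12287118-12287367, plus strand: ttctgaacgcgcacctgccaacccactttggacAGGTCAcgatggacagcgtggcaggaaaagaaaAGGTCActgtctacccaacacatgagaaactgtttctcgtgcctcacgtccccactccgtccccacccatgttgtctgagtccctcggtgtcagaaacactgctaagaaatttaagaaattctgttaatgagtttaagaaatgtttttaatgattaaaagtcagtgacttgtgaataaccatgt
ANGPTL4, chr19:8363905-8364154, plus strand: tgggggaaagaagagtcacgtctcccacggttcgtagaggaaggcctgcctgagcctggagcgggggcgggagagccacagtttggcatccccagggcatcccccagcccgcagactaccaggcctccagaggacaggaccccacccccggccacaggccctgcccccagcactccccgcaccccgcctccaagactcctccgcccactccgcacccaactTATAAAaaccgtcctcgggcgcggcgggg
Searched on both strands, AGGTCA was in 3 of the 17 member promoters, all at PPARG, and in 13.8% of all promoters. A pair of these PPARG entries overlap and hold the same single site, so the 3 entries are not separate matches. TATAAA was in 3 of the 17, at ANGPTL4 and at the same overlapping pair, and in 11.5% of all. The full PPAR response element, AGGTCA repeated after a single spacer base, was in 0 of the 17 and in 0.0228% of all, and each match of it also holds AGGTCA. The last sequence is that of CPT1A, with CG in capitals, because the RefSeq start it precedes lay under the narrower of the CPT1A start peaks in HCT116, which held fewer reads.
CPT1A, chr11:68844278-68844527, minus strand: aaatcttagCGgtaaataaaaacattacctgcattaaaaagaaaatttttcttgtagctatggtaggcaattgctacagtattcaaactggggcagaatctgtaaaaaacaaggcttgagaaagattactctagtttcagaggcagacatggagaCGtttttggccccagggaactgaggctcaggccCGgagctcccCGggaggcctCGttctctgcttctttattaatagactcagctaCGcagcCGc
The 300-base window of CPT1A held 13 CG and neither motif. Both PPARA windows had 52 CG, percentile 99.4 of all promoters.

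Colon epithelium is described first. There the RNAs of the member enzymes Bdh1, Acat1 and Cpt1a were among the more abundant. Levels are given as CPM per kb of merged exons, so that genes of different length can be compared, and the percentile is that among 14954 genes with a read and a length. Bdh1 was counted 2058, 2431 and 2391 times in the 3 mice, which is 62.2 ± 3.37 CPM per kb (SD, n = 3) and percentile 94.8. Acat1, the mitochondrial thiolase, was counted 1755, 2335 and 2362 times, or 60.0 ± 4.17 CPM per kb (SD, n = 3). Cpt1a, the gate of long-chain fatty acids into mitochondria, was counted 2832, 3550 and 2917 times, or 42.7 ± 3.07 CPM per kb (SD, n = 3), percentile 91.7. The mice overlapped between Bdh1 and Acat1, while the lowest Acat1 value (57.2) was above the highest Cpt1a value (45.4).

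Receptors and targets were lower. Pparg was counted 566, 615 and 651 times, or 21.9 ± 2.14 CPM per kb (SD, n = 3), and no mouse overlapped with Cpt1a above or Ppargc1a below it. Ppargc1a, the coactivator of PPARs and a driver of mitochondrial biogenesis, was counted 362, 335 and 316 times, or 5.47 ± 1.09 CPM per kb (SD, n = 3). Ppara was counted 156, 151 and 161 times, or 4.33 ± 0.652 CPM per kb (SD, n = 3). The ranges of Ppargc1a and Ppara overlapped, although Ppargc1a was the higher in each of the 3 mice (6.72 against 4.98, 4.75 against 3.68 and 4.94 against 4.33 CPM per kb). Pdk4 was counted 113, 61 and 63 times, or 2.47 ± 1.28 CPM per kb (SD, n = 3), and Angptl4 59, 26 and 22 times, or 1.12 ± 0.795 CPM per kb (SD, n = 3). Mouse 1, the library with the fewest reads, had the highest level of 7 of the 8 genes, by the widest ratios for Angptl4 (2.04 against 0.686 and 0.640 CPM per kb) and Pdk4 (3.94 against 1.62 and 1.85), and the lowest of Acat1. Ppara overlapped with Pdk4, and Pdk4 with Angptl4, between mice, but within each mouse the levels fell in this order. Of other cell types, immune markers summed to 53.5 to 77.8 CPM in colon, smooth muscle markers to 37.5 to 51.7 CPM, stromal and vascular markers to 26.6 to 31.5 CPM and adipocyte markers to 6.08 to 12.5 CPM, and their part in these levels was not tested. In these bulk samples fewer expressing cells and less RNA per cell cannot be told apart.

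In HCT116 the same genes stood in another order. CPT1A led in DMSO with 22.0 ± 0.557 CPM per kb (SD, n = 4), percentile 87.7 of 15876 genes, and its lowest library (21.4) was above the highest of ACAT1 (19.3). ACAT1 stood at 14.9 ± 4.08 CPM per kb (SD, n = 4), percentile 82.1. ANGPTL4 was at 2.55 ± 0.574, BDH1 at 1.91 ± 0.216, PPARG at 1.74 ± 0.284, PPARA at 1.63 ± 0.874 and PDK4 at 0.861 ± 0.671 CPM per kb (SD, n = 4). From BDH1 down to PDK4 neighbouring genes overlapped between libraries, although within each of the 4 libraries BDH1 was above PPARG and PPARA above PDK4. PPARGC1A had 0 reads in all 8 HCT116 libraries, which allows at most 0.0562 to 0.0842 CPM in a library (3 reads of its total, counting error only).

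Human and mouse levels come from tables counted and normalised apart, with exon models of different length (11.8 kb for BDH1, 3.89 kb for Bdh1), so they stand side by side and were not tested. In the HCT116 table with DMSO 7 of the 8 genes had a lower mean than in the colon table. These were BDH1 (1.91 against 62.2 CPM per kb), PPARG (1.74 against 21.9), ACAT1 (14.9 against 60.0), PDK4 (0.861 against 2.47), PPARA (1.63 against 4.33), CPT1A (22.0 against 42.7) and PPARGC1A (0 against 5.47). ANGPTL4 was higher (2.55 against 1.12). The order of PPARA rests on the exon models, 13.2 kb in human and 3.84 kb in mouse. In plain CPM its mean was 21.6 in HCT116 with DMSO and 16.6 in colon, whereas the other genes kept their order. The share of all genes with a lower value in HCT116 was not counted.

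**Figure D1:**
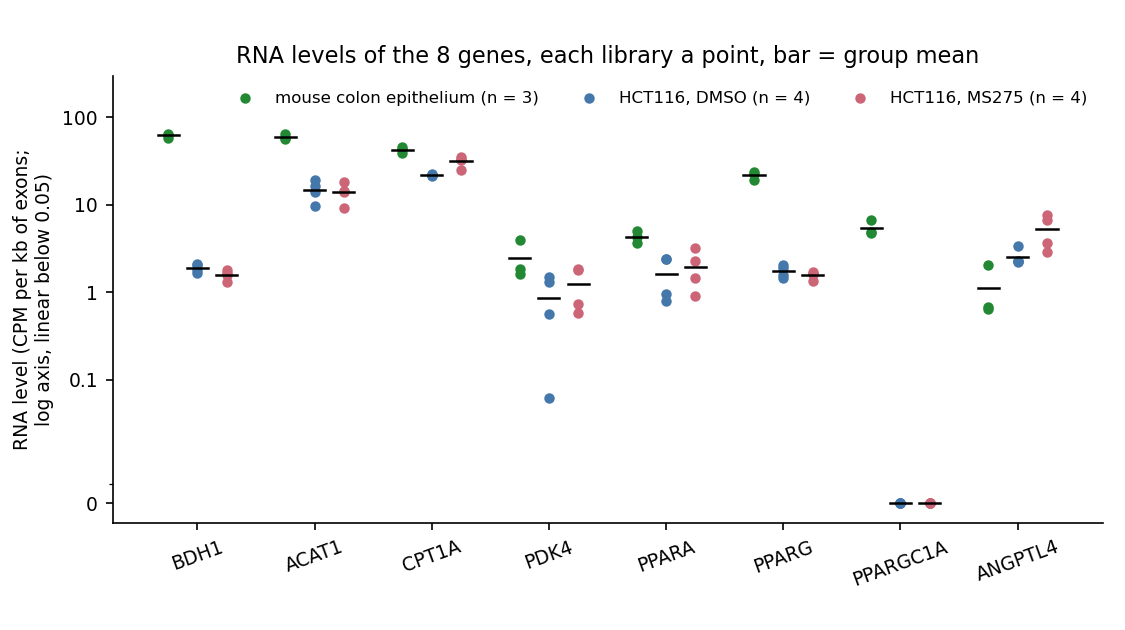
RNA level of each gene in CPM per kb of merged exons (vertical axis, logarithmic above 0.05), with a point per library and a bar at the group mean for mouse colon epithelium (n = 3), HCT116 with DMSO (n = 4) and HCT116 with MS275 (n = 4). The colon libraries lie above all HCT116 libraries for BDH1, ACAT1, PPARA, PPARG, CPT1A and PPARGC1A, which is at 0 in the 8 HCT116 libraries, and overlap with them for PDK4. For PPARA this rests on exon length, as its mean in plain CPM was higher in HCT116 with DMSO (21.6) than in colon (16.6).

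Chromatin at these genes in colon is described next. Since the peaks were called as ChIP over input, the enrichment was not tested again. All 8 genes had an H3K18cr start peak and an H3K4me3 start peak, and 8 of the 10 H3K18cr start peaks overlapped an H3K4me3 peak, while 0 of the 12 other H3K18cr peaks did. Values are reads scaled by the authors to the largest library of the table. The Cpt1a start peak (GRCm38, chr19:3318901-3326850, 7950 bp) held the most scaled reads, 590 and 1169 in the ChIP libraries against 192 and 296 in the inputs, percentile 99.7 of all H3K18cr peaks. Its mean log2 ratio to input was 1.80. Pparg also had a start peak of 7950 bp (chr6:115360651-115368600), with 534 and 739 scaled reads against 222 and 262 in the inputs, percentile 99.1. The median H3K18cr peak of the table was 1500 bp wide and held 112 scaled reads.

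At Bdh1 no peak lay at the outer 5′ end of the gene. The H3K18cr peak (chr16:31427851-31429950) was centred 6620 bp inside the gene, over 2 internal coding starts, with 189 and 290 scaled reads against 45 and 68.7 in the inputs. Its log2 ratio to input, 2.05 and 2.06 in the libraries, was the highest among the 10 start peaks. H3K4me3 peaked there too (chr16:31428151-31430400) with 246, 444 and 602 scaled reads against 51 in the input. Ppara had 307 and 426 scaled H3K18cr reads at its start (chr15:85733851-85737300) against 101 and 108 in the inputs. Ppargc1a was marked over internal coding starts, 14750 bp from its outer end (chr5:51551551-51554400), with 167 and 266 scaled reads against 80 and 85.5. The H3K4me3 start peaks of Ppargc1a had the lowest means over the 3 libraries, 63.2 and 34.3 scaled reads against 24 and 14 in the input, although in library 1 the peak of Angptl4 (46.0) was below the larger of them (50.6).

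Fewer scaled reads lay in the narrower H3K18cr start peaks of Acat1 (chr9:53609401-53610450), with 70.0 and 109 against 30 and 45.8 in the inputs, and Angptl4 (chr17:33780751-33781950), with 81.1 and 107 against 39 and 56.5. The fewest scaled reads of the 10 were in the smaller of a pair at Pdk4 (chr6:5494651-5495400, 750 bp), with 34.98 and 82.7 against 19 and 24.4, percentile 13.7 of peaks. By mean log2 ratio to input the lowest of the 10 was Angptl4 (0.974), with Acat1 at 1.21 and this Pdk4 peak at 1.28. Acat1 RNA was at percentile 94.6, and its H3K18cr peak of 1050 bp stood at percentile 36.6 of peaks. Peak percentiles rank total scaled reads without regard to width, so they are not set against RNA percentiles. The stronger start peak of Pdk4 (chr6:5495701-5497350) held 135 and 178 scaled reads against 37 and 47.3. H3K18cr library 2 was the higher in all 10 start peaks and H3K4me3 library 1 the lowest in all 9, after the scaling of the deposited table.

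**Figure D2:**
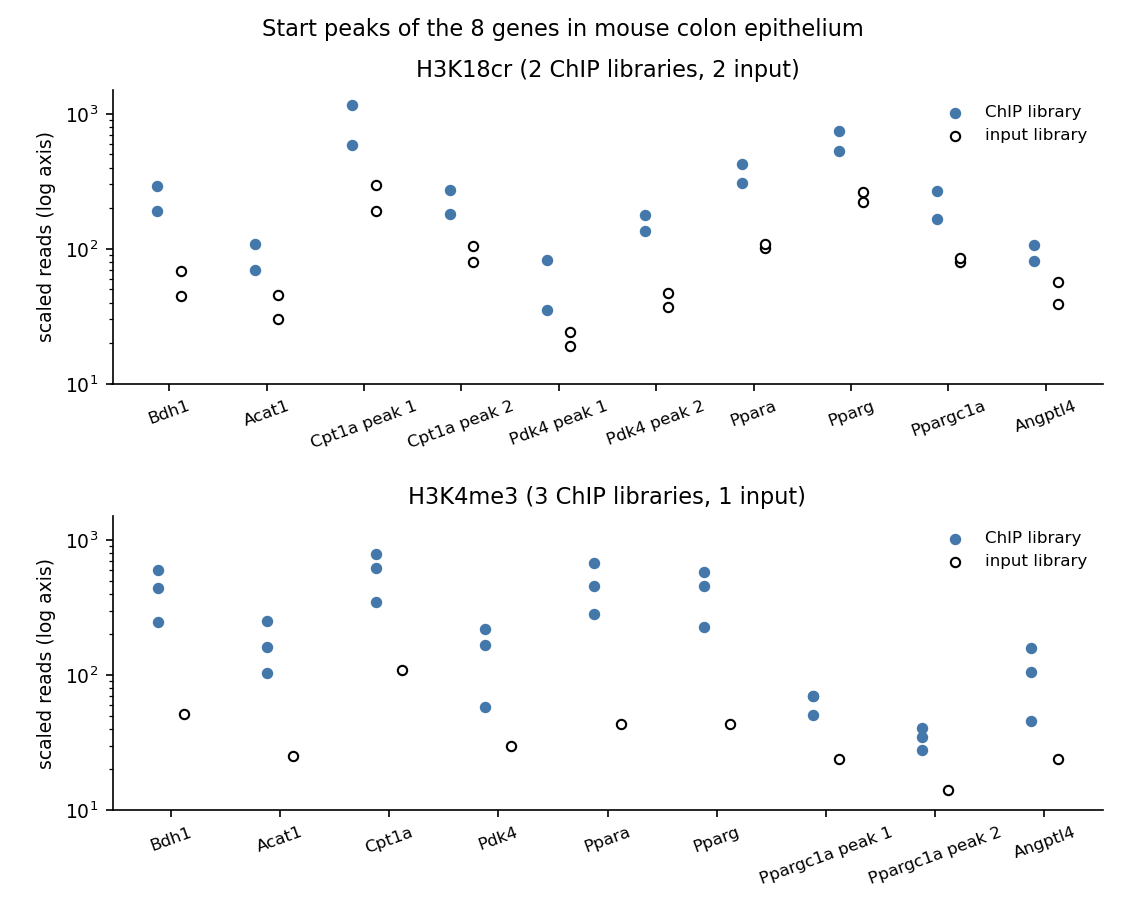
Scaled reads (logarithmic axis) in the H3K18cr start peaks (upper panel, 2 ChIP and 2 input libraries) and the H3K4me3 start peaks (lower panel, 3 ChIP and 1 input library) of the 8 genes in colon epithelium. Filled points are ChIP and open points input libraries. Cpt1a peak 1 and Pparg carry the highest H3K18cr totals, in peaks of 7950 bp. By mean log2 ratio to input Bdh1 is highest (2.06), with Cpt1a peak 1 at 1.80 and Pparg at 1.38.

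The effect of MS275 on RNA was asked next in HCT116. CPT1A was counted 6698, 5297, 5493 and 7657 times with DMSO and 9638, 8342, 5883 and 9010 times with MS275. After scaling for library size all 4 MS275 libraries (log2 CPM 7.55 to 7.79) were above all 4 DMSO libraries (7.10 to 7.31), as for 3.48% of all genes tested. Read against the same-numbered library, CPT1A was higher in 4 of 4 pairs, by 0.24 to 0.61 on the log2 scale. ANGPTL4 was counted 379, 204, 216 and 302 times with DMSO and 804, 281, 589 and 365 times with MS275. It was higher in 4 of 4 pairs, by 0.35 to 1.58 on the log2 scale, with the MS275 libraries 1 and 3 above all DMSO libraries. After TMM scaling libraries 2 and 4 lay within the range of DMSO, library 4 barely (log2 CPM 3.087 against 3.089), and scaled to totals alone library 4 was above it (8.96 against 8.44 CPM). Higher in 4 of 4 pairs were 19.2% of all genes.

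Without regard to the pairs, edgeR's quasi-likelihood test called 0 of the 7 genes with enough reads at an adjusted p under 0.05, where 0.00668% of 14961 genes were called (1 gene) and 987 genes had an unadjusted p under 0.05. CPT1A had a log2 change of 0.49 (SE 0.14, adjusted p = 0.420) and ANGPTL4 of 1.05 (SE 0.36, adjusted p = 0.541), with unadjusted p of 0.0048 and 0.014. When the library number entered the same test as a block, 14.4% of genes were called, 7.83% higher and 6.55% lower, and 2 of the 7 genes rose. CPT1A rose 1.41-fold (log2 0.49, SE 0.075, adjusted p = 0.0015) and ANGPTL4 1.91-fold (log2 0.93, SE 0.22, adjusted p = 0.0148). With 7 genes, 2 calls were not tested against the 14.4% of all genes. Leaving out the libraries numbered 3, which stood apart, gave log2 changes of 0.57 for CPT1A (adjusted p = 0.00028) and 0.71 for ANGPTL4 (adjusted p = 0.0370) in the blocked edgeR fit. ANGPTL4 lost its call without the libraries numbered 1 (log2 0.86, adjusted p = 0.0955, edgeR), and CPT1A kept its call whichever pair was left out.

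PDK4, the other PPAR target among the members, varied most between libraries. It was counted 115, 215, 11 and 368 times with DMSO and 139, 329, 95 and 336 times with MS275. It was higher in 4 of 4 pairs, by 0.24 to 3.07 on the log2 scale, and the largest difference belonged to the libraries numbered 3, where DMSO had 11 reads. The blocked log2 change of 0.90 (SE 0.44, edgeR adjusted p = 0.192) did not pass, and without these libraries it was 0.35 (adjusted p = 0.373), against 1.065 to 1.202 without another pair.

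After TMM scaling the ketone enzymes lay lower with MS275 in every pair, by 0.054 to 0.65 on the log2 scale for BDH1 and by 0.043 to 0.19 for ACAT1, and neither passed. Scaled to library totals alone, pair 1 was level, with 19.8 CPM in both libraries for BDH1 and 82.7 against 83.4 CPM for ACAT1. BDH1 was counted 889, 879, 983 and 1122 times with DMSO and 830, 603, 756 and 765 times with MS275, and ACAT1 3713, 3523, 2219 and 6049 against 3493, 3326, 1929 and 4355 times. The blocked log2 changes were -0.28 for BDH1 (SE 0.14, edgeR adjusted p = 0.194) and -0.10 for ACAT1 (SE 0.076, edgeR adjusted p = 0.428). Leaving out 1 pair gave -0.35 to -0.17 for BDH1, the latter without pair 2, and -0.12 to -0.081 for ACAT1. Lower in 4 of 4 pairs were 17.5% of all genes. Both groups overlapped for these enzymes.

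Neither receptor passed. PPARA was counted 475, 1148, 494 and 1684 times with DMSO and 808, 1199, 429 and 1710 times with MS275, higher in 2 pairs and lower in 2, so that the spread between same-treated libraries was larger than the difference between treatments. PPARG was counted 845, 823, 968 and 929 times with DMSO and 849, 640, 686 and 801 times with MS275, also with 2 pairs each way. Their blocked log2 changes were 0.27 (SE 0.15, edgeR adjusted p = 0.263) and -0.15 (SE 0.14, edgeR adjusted p = 0.529). Leaving out 1 pair gave 0.10 (without pair 1) to 0.37 for PPARA and -0.26 (without pair 4) to -0.060 (without pair 2) for PPARG, with neither passing. PPARGC1A, at 0 in both treatments, could not be fitted.

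**Figure D3:**
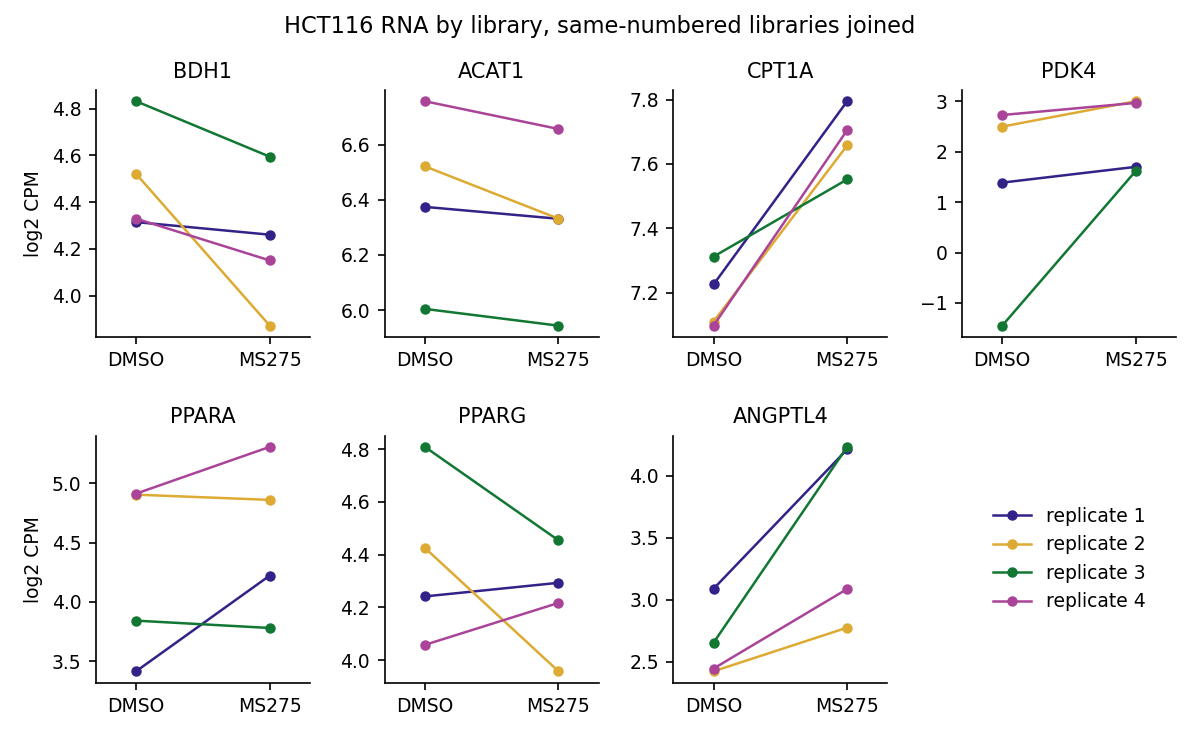
HCT116 RNA of the 7 fitted genes as log2 CPM (vertical axes, a separate range for each gene), with lines joining the DMSO and MS275 libraries of the same number. CPT1A and ANGPTL4 are higher with MS275 in 4 of 4 pairs, and PDK4, PPARA and ACAT1 differ more between numbers than between treatments.

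The gene with the most similar log2 CPM over the 8 libraries, among 12092 others with a mean of at least 100 reads, was EMP3 for BDH1 (r = 0.99), MSL2 for ACAT1 (r = 0.98), LLGL1 for PPARA (r = 0.98), COX11 for PPARG (r = 0.97), MSX2 for CPT1A (r = 0.96), STX1A for ANGPTL4 (r = 0.95) and NBEA for PDK4 (r = 0.99). PDK4 had its lowest value, 11 reads, in a library numbered 3. With so many genes and 8 libraries high values are common: 356 genes were above 0.9 for PDK4 and 15 for ANGPTL4.

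The wider pathways held genes that moved each way. Of 110 genes in 7 lists, 88 could be fitted, and with the replicate block 11 rose and 6 fell, 19.3% against 14.4% of all genes. Without the libraries numbered 3, an alternative chosen after seeing the data, 9 rose and 7 fell of 87 (18.4%), against 17.2% of all genes. In the edgeR fit without the block 0 of the 88 was called, where 1 gene of all 14961 was and 987 had an unadjusted p under 0.05. The members count among them, and without these 9 rose and 6 fell of 81 genes (18.5%). The values below are blocked log2 changes from edgeR with adjusted p.

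In the list of ketone body enzymes, 1 gene rose and 1 fell of 8 fitted, with a median log2 change of -0.11 against 0.0081 for all genes. HMGCS1, the cytosolic synthase of the cholesterol pathway, rose by 0.35 (adjusted p = 0.0357), and ACAT2, its cytosolic thiolase, fell by 0.50 on the log2 scale (adjusted p = 0.0050). ACAT2 was counted 3100, 1730, 1953 and 2014 times with DMSO and 1940, 1411, 1258 and 1129 times with MS275, lower in every pair. Both genes serve sterol synthesis rather than mitochondrial ketogenesis.

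Of 20 mitochondrial oxidation genes, CPT1A rose and ECI1, an enoyl-CoA isomerase for unsaturated fatty acids, fell by 0.29 on the log2 scale (adjusted p = 0.0439), and the median was -0.023. Of the 20 genes, 9 had a positive log2 change. In peroxisomes, ABCD3, a transporter of fatty acids, rose by 0.38 (adjusted p = 0.0076) and HSD17B4, the bifunctional enzyme, by 0.25 (adjusted p = 0.0443), of 12 fitted. Among genes of fatty acid activation and uptake 2 of 12 rose, both acyl-CoA synthetases: ACSL3 by 0.48 (adjusted p = 6.46e-04) and ACSL4 by 0.55 (adjusted p = 0.0037).

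Of 16 receptors and cofactors 3 rose and 1 fell. PPARD, the third PPAR, rose by 0.42 (adjusted p = 0.0062), with 2071, 1927, 1795 and 2911 reads in DMSO and 2743, 2811, 2091 and 3030 in MS275. In HCT116 with DMSO its level, 11.2 CPM per kb, was above those of PPARA and PPARG. PPARGC1B, a relative of the silent PPARGC1A, rose by 0.61 (adjusted p = 0.0361), and PPRC1, the other relative, fell by 0.42 on the log2 scale (adjusted p = 0.0087). The list of PPAR targets had the highest median, 0.35 over 17 genes, of which 3 rose and 1 fell. Besides ANGPTL4 and CPT1A, UCP2, a mitochondrial carrier, rose by 0.83 (adjusted p = 0.0053), with 360, 460, 490 and 807 reads in DMSO and 517, 1180, 904 and 867 in MS275. HILPDA, a lipid droplet protein, fell by 0.49 on the log2 scale (adjusted p = 0.0427). In the pyruvate dehydrogenase list, of which PDK4 is a member, 2 of 11 fell and none rose, while 7 of the 11 had a positive change and the median was 0.061. Those that fell on the log2 scale were PDHA1, which fell by 0.24 (adjusted p = 0.0455), and PDHB, which fell by 0.36 (adjusted p = 0.0302). They encode the E1 subunits, of which PDHA1 is the one that the kinases phosphorylate.

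**Figure D4:**
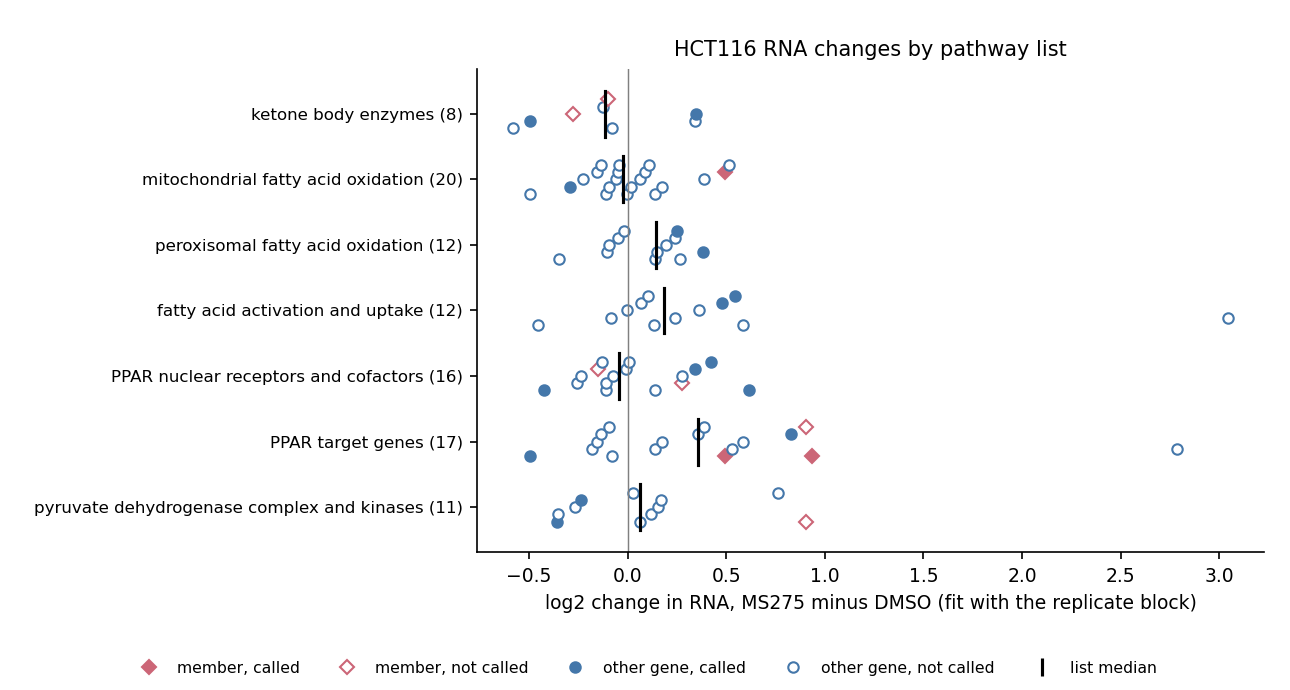
Log2 change in HCT116 RNA, MS275 minus DMSO (horizontal axis, edgeR with the replicate block), for the fitted genes of the 7 lists, the number of which follows each list name. Diamonds are member genes, circles other genes, filled symbols have an adjusted p under 0.05 and vertical bars are list medians, which lie between -0.11 and 0.35. A gene in several lists is drawn in each.

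Markers of other cell types were read beside these changes. Stromal and vascular markers summed to 11.6 to 13.6 CPM with DMSO and 21.3 to 23.6 CPM with MS275, 8 of 8 found, led by COL1A1, with PDGFRA and DCN at 0 in DMSO. Adipocyte markers summed to 38.5 to 61.7 and 35.7 to 90.1 CPM, nearly all from CFD, 7 of 7 found. ADIPOQ, FABP4 and RETN were at 0 in all 8 libraries, PLIN1 and CIDEC were at 0 with DMSO and reached 0.0737 and 0.788 CPM with MS275, and LEP reached 0.230 CPM with DMSO and was at 0 with MS275. Immune markers summed to 6.70 to 8.34 and 5.95 to 12.2 CPM. The part of adipocyte, stromal and immune markers in these results was not tested.

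The last question is how the marks changed at the same genes. In HCT116, 10 of the 19 member peaks were start peaks, and 7 of the 8 genes had at least 1; PPARGC1A had no peak within 10 kb. With the deposited scaling, H3K18cr was lower with MS275 at 10 of 10 start peaks, as at 92.5% of the start peaks of all genes. It passed the test at 4: those of ACAT1, PPARG, CPT1A and ANGPTL4. Values of either scaling are relative to the other reads of a library, not amounts of the mark. By western blot and by ChIP-qPCR at chosen promoters the paper reports more H3K18cr with MS275. It proposes that the drop over gene starts in sequencing is relative and could reflect a larger rise elsewhere. Over all 40026 peaks tested with limma 23.2% were called, 23.0% lower and 0.232% higher. Over the 12821 start peaks of all genes 55.1% were called lower, and their median log2 change was -0.54, while that of the 10 member start peaks was -0.43. The 10 peaks, of which PPARG holds 3 and CPT1A 2, are too few to set 4 calls apart from this background, and the difference was not tested. The peak medians moved with the scaling, from -0.20 for all H3K18cr peaks to 0.039 with TMM computed over peaks, and from -0.19 to 0.058 for H3K18ac. With TMM, 749 H3K18cr peaks (1.87%) were called higher and 4460 (11.1%) lower, instead of 93 and 9210, which is 13% in all. For H3K18ac 1838 (4.58%) were called higher and 6639 (16.5%) lower, 21.1% in all, instead of 106 (0.264%) and 6534 (16.3%). With TMM 7 of the 10 member start peaks were lower for H3K18cr, against 80.1% of the start peaks of all genes. Of the 10 member start peaks TMM left 0 called for H3K18cr, where 29.6% of all gene starts were called lower, and 1 called lower for H3K18ac, where 43.8% were. Log2 differences at the start peaks are therefore given with both scalings.

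ANGPTL4, whose RNA rose in the blocked fit, had a start peak (chr19:8361451-8365200, over 6 coding starts) with lower values of both marks. Its scaled H3K18cr reads were 266, 239 and 356 with DMSO and 168, 167 and 237 with MS275, without overlap, against 74.3 and 49.5 in the inputs. H3K18ac there was 242, 318 and 398 with DMSO and 232, 177 and 154 with MS275, again without overlap. The log2 change was -0.59 for H3K18cr (SE 0.18, limma adjusted p = 0.0133) and -0.76 for H3K18ac (SE 0.25, limma adjusted p = 0.0217). With TMM the values were -0.35 (adjusted p = 0.190) and -0.51 (adjusted p = 0.0020). With the library number as a block the H3K18ac call was lost (adjusted p = 0.231), and the H3K18cr call was not (adjusted p = 0.0022). With the block and TMM together both passed (adjusted p = 0.0046 for H3K18ac and 0.0094 for H3K18cr). The ratio to the single input of each treatment was 3.82 with DMSO and 3.79 with MS275 for H3K18cr and 4.25 and 3.73 for H3K18ac. At the other starts called for H3K18cr it was 4.09 and 2.95 (PPARG), 3.22 and 2.32 (CPT1A) and 3.15 and 1.52 (ACAT1). A second peak inside the gene, centred 4236 bp from its 5′ end, differed by 0.15 for H3K18cr and -0.32 for H3K18ac, both short of the threshold.

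CPT1A had a pair of start peaks. The larger (chr11:68837851-68842350), centred 4310 bp inside the gene over 3 coding starts, held 301, 252 and 246 scaled H3K18cr reads with DMSO and 199, 178 and 177 with MS275, without overlap. Its log2 change was -0.52 (SE 0.16, limma adjusted p = 0.0157), and -0.28 with TMM (adjusted p = 0.158). H3K18ac there, with 188, 234 and 259 against 223, 165 and 120 scaled reads, overlapped and differed by -0.45 (SE 0.25, limma adjusted p = 0.250), or -0.20 with TMM. The smaller peak (chr11:68843401-68844900), which covers the RefSeq start printed above, held 73.0, 60.1 and 41.8 against 50.6, 53.8 and 43.5 scaled H3K18cr reads and did not pass (-0.21, and 0.029 with TMM). H3K18ac at the smaller peak differed by -0.43, or -0.17 with TMM.

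ACAT1 had the largest H3K18cr change of the members, -0.73 (SE 0.22, limma adjusted p = 0.0118), at the peak over its start (chr11:108120751-108122850). It held 119, 112 and 83.5 scaled reads with DMSO and 44.99, 89.2 and 60.3 with MS275. The groups overlapped through library 3 of DMSO and library 2 of MS275, and the TMM value was -0.48 (adjusted p = 0.129). The rank of ACAT1 did not hold in each fit: without MS275 library 1 its H3K18cr change was -0.50, against -0.63 at the outer start of PPARG. H3K18ac at ACAT1 differed by -0.65 (SE 0.25, limma adjusted p = 0.0557), and by -0.39 with TMM (limma adjusted p = 0.0873). BDH1 was again marked at the internal start printed above (chr3:197553901-197556750, over 6 coding starts), not at its outer end 17998 bp away. H3K18cr there was 199, 231 and 132 against 143, 144 and 124 scaled reads, and the log2 differences of -0.41 for H3K18cr (limma adjusted p = 0.114) and -0.64 for H3K18ac (limma adjusted p = 0.0675) did not pass. With TMM they were -0.17 (limma adjusted p = 0.505) and -0.38 (limma adjusted p = 0.0659).

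PPARG had the most peaks, 7, of which 3 were start peaks. The outer start peak (chr3:12287251-12289350), which begins between the AGGTCA sites printed above and the RefSeq start, had 173, 164 and 121 scaled H3K18cr reads with DMSO and 99.0, 92.1 and 102 with MS275, without overlap, a change of -0.62 (SE 0.18, limma adjusted p = 0.0101) that was -0.38 with TMM (adjusted p = 0.0920). H3K18ac there overlapped between treatments and differed by -0.32 (limma adjusted p = 0.475), or -0.069 with TMM. Inside the gene the picture differed by scaling: at 117632 bp from the 5′ end (chr3:12403351-12406650), H3K18ac was 67.9, 70.9 and 74.7 with DMSO and 88.3, 102 and 82.8 with MS275, without overlap. The log2 difference was 0.35 with the deposited scaling (limma adjusted p = 0.407) and a rise of 0.58 with TMM (limma adjusted p = 0.0089). The peak at 136982 bp (chr3:12423151-12425550) differed by 0.30 (adjusted p = 0.505) and rose by 0.53 with TMM (limma adjusted p = 0.0293). The other start peaks of PPARG differed by -0.11 and -0.15 for H3K18cr, and both values were above 0 with TMM (0.12 and 0.089). For H3K18ac they were at 0.045 and -0.31, and at 0.27 and -0.063 with TMM. PDK4 and PPARA had 1 start peak each, with log2 differences of -0.44 and -0.41 for H3K18cr and -0.25 for H3K18ac at both, none past the threshold. With TMM these were -0.19 and -0.16 for H3K18cr and -0.0045 and -0.0035 for H3K18ac.

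With TMM and the library number as a block together, an alternative chosen after seeing the data, the 4 starts called for H3K18cr passed: ACAT1 (limma adjusted p = 0.0198), PPARG (0.0233), CPT1A (0.0407) and ANGPTL4 (0.0094). In the same fit 1 of the 9 peaks away from starts was called higher for H3K18cr, that of PPARG at 58307 bp from its 5′ end (chr3:12344401-12346950), which rose by 0.43 (limma adjusted p = 0.0426) and differed by 0.20 with the deposited scaling (limma adjusted p = 0.546). Its scaled H3K18cr reads were 63.0, 71.0 and 66.5 with DMSO and 79.9, 70.8 and 79.96 with MS275, which overlap.

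With the single input of each treatment subtracted from its ChIP libraries (with a floor of 1 scaled read), CPT1A kept its H3K18cr call (-0.80, limma adjusted p = 0.0344) and the other 3 starts lost theirs: ACAT1 (-2.46, limma adjusted p = 0.0578), PPARG (-0.80, limma adjusted p = 0.0607) and ANGPTL4 (-0.59, limma adjusted p = 0.156). The H3K18ac call of ANGPTL4 was lost as well (-0.82, limma adjusted p = 0.159). PDK4, short of the threshold either way, moved from -0.44 to -2.21 for H3K18cr (limma adjusted p = 0.105).

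The calls also depended on single libraries. For H3K18cr, ACAT1 lost its call without DMSO library 1 (-0.63), MS275 library 1 (-0.50) or MS275 library 3 (-0.71). PPARG lost it without DMSO library 1 (-0.52), DMSO library 2 (-0.56) or MS275 library 2 (-0.58), and CPT1A without the same 3 libraries (-0.43, -0.56 and -0.50). ANGPTL4 lost it without MS275 library 1 (-0.51) or 2 (-0.50), and for H3K18ac without DMSO library 2 (-0.75), DMSO library 3 (-0.59), MS275 library 2 (-0.73) or MS275 library 3 (-0.63). Other peaks passed when a library was left out. For H3K18cr these were BDH1 (-0.65, limma adjusted p = 0.0017) and PPARA (-0.59, limma adjusted p = 0.0068) without DMSO library 3, and PDK4 (-0.66, limma adjusted p = 0.0335) without MS275 library 3. For H3K18ac they were BDH1 and ACAT1 without DMSO library 1 (-0.90 and -0.91) or MS275 library 1 (-0.86 and -0.78). Away from starts, H3K18ac at a pair of BDH1 peaks passed in opposite directions, at -0.95 without MS275 library 1 (chr3:197509651-197510400, limma adjusted p = 0.0360) and at 0.87 without DMSO library 3 (chr3:197515801-197517300, limma adjusted p = 0.0468). H3K18cr at BDH1 ran from -0.65 to -0.24, the latter without DMSO library 2. The direction at the starts named here was the same in each of these fits.

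For H3K18ac, 1 of 10 member start peaks was called lower, that of ANGPTL4, where 16.5% of all 40122 peaks were called in either direction and 43.1% of the 12820 start peaks of all genes were called lower. The 9 peaks away from starts had a median change of -0.0050 for H3K18cr and 0.20 for H3K18ac, and 0 of 9 was called for either mark with the deposited scaling. Among all peaks away from starts 7.91% were called lower and 0.312% higher for H3K18cr, and 3.68% and 0.359% for H3K18ac. With TMM 2 of the 9 were called higher for H3K18ac, both at PPARG, where 5.94% of all such peaks were. Whether MS275 changed H3K18cr and H3K18ac differently was tested by an interaction in limma over the 12 ChIP libraries. None of the 19 member peaks was called, as 0 of all 40266 peaks (0%) were, and 0 of the 19 had an unadjusted p under 0.05, where 739 of all peaks did. At the 10 start peaks the difference between the marks ran from -0.30 at PPARG to 0.22 at BDH1, and the adjusted p was 0.9999 at each. These differences were unstable: at BDH1 the value was 0.75 without the libraries numbered 1 and -0.40 without those numbered 3, and at the outer start of PPARG 0.086 and -0.80. Without number 1 an unadjusted p under 0.05 was found at 1 start peak and 1 other member peak, and without number 3 at 1 and 3, with 0 called.

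**Figure D5:**
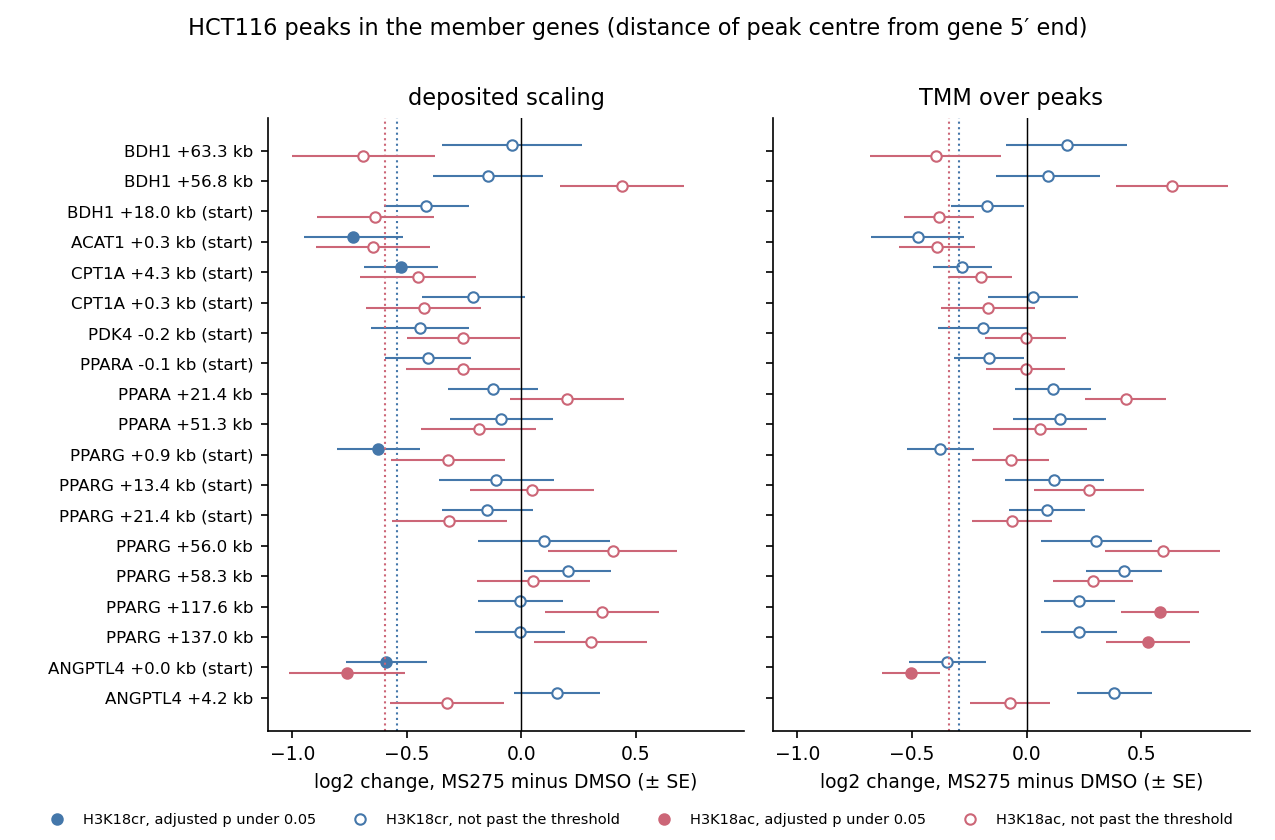
Log2 change of H3K18cr and H3K18ac with MS275 (horizontal axes, with SE from limma) at the 19 member peaks, named by gene and by distance of the peak centre from the 5′ end of the gene, with the deposited scaling (left) and TMM over peaks (right). Filled points have an adjusted p under 0.05, and dotted lines give the median of the start peaks of all genes (-0.543 and -0.595 on the left, -0.295 and -0.338 on the right).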

How the data were processed

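RNA was read in 11 libraries and chromatin in 22, of 33 in all. The RNA tables hold raw read counts per gene, deposited by the authors; the methods name Trim Galore, HiSat2 (for mouse) and SeqMonk with uniquely mapped reads, and the submitters' processing notes name Bowtie2 2.2.5, TopHat2 2.0.12 and Trim Galore 0.4.2. The notes name these tools alike for all 33 samples and the methods name no mapper for the HCT116 RNA reads, so the mapper used for them is not certain. The use of strand in counting is not given in the sources used here, so antisense reads cannot be told apart. The HCT116 peak table holds log2 values, which the authors made from deduplicated reads in a single MACS peak list scaled to the largest library. The colon peak tables hold signal values deposited by the authors, scaled in the same way.

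Per gene, CPM and CPM per kb of merged exons were computed (GENCODE 44 and M21, by symbol, 20583 of 35805 and 22735 of 25965 names matched). HCT116 RNA was tested with edgeR 4.0.16 (quasi-likelihood, TMM, filterByExpr), peaks with limma 3.58.1 (trend) on the deposited log2 values where at least 3 libraries reached 10 scaled reads, in R 4.3.3. P-values were adjusted over all features by Benjamini-Hochberg and called under 0.05. Log2 CPM of single libraries used a prior count of 2. Whole reads were recovered from the scaled values (100% whole within 0.02 read, a tolerance that was widened in proportion for higher counts). The scripts were tested on simulated data. Python 3.11.15 was used for summaries. Alternatives are listed in the closing section.

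Same-numbered RNA libraries deviated together from their group means (r = 0.226, 0.151, 0.433 and 0.460), each over 0.1, so the numbers were taken to pair the RNA samples and blocked values are printed where they change a call. This pairing comes from the data, as the labels do not say what a number marks, and it is weakest for number 2: DMSO 2 correlated more with MS275 4 (0.239), and MS275 2 more with DMSO 4 (0.219). The members and lists were chosen with earlier results of these data known. Named were all members, the list genes called without the block or, with it, the 3 with the largest change in each list at a mean of 100 reads or more, all start peaks and other called peaks, and the most similar gene of each member; PPARG peaks called with TMM were added after their values were seen. Some genes of the lists are not reported here by name. Precision is limited by depth only in that intervals and floors cover counting error.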

Additional observations from a re-analysis of the deposited data

How the results depend on the processing

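The count of HCT116 RNA genes called was 1 without a block and 2151 with the replicate block, 161 with DESeq2, 13 without a filter, and 0 to 1 when single libraries were left out. With the block it was 968, 994, 2584 and 1037 without pairs 1 to 4, 2198 with RLE size factors and 2610 with DESeq2, the last 2 chosen after seeing the data. Of the members 0 were called without the block, 2 with it, 2 with either of those settings and 1 to 2 without one pair. Without single libraries ACAT1 RNA ran from -0.23 to 0.023 (above 0 without DMSO replicate 4, and at 0.0084 without MS275 replicate 3), and PPARA RNA from -0.055 (without MS275 replicate 4) to 0.47. H3K18cr calls numbered 9303, against 5209 with TMM, 3376 with DESeq2 on recovered reads and 5918 to 12590 without single libraries, and member start peaks called were 4, against 0 with TMM, 0 with DESeq2, 1 with input subtracted and 1 to 6 without single libraries. H3K18cr at PPARG 12300151 turned to 0.12 with TMM (with or without the replicate block), 0.14 with DESeq2 and 0.37 with input subtracted; at PPARG 12307351 to 0.089, 0.072 and 0.24; at CPT1A 68843401 to 0.029 with TMM and 0.0069 with DESeq2. H3K18ac calls numbered 6640, against 814 with the replicate block, 3898 with input subtracted and 1432 to 9318 without single libraries, and member start peaks called were 1, against 0 with the block, 3 with edgeR on recovered reads, 0 with input subtracted and 0 to 3 without single libraries. H3K18ac at PPARA turned to 0.040 with DESeq2, and at PPARG 12300151 to -0.15, -0.016 and -0.073 without DMSO replicate 1, MS275 replicate 1 and MS275 replicate 2, with 0.27 as the highest value without a library. The causes were not tested. With the ChIP replicate block, H3K18cr calls numbered 10654 (4 member start peaks), and with block and TMM together 9508 (4) and for H3K18ac 7643 (1). The study compared these ChIP libraries at gene starts with a paired test, but neither labels nor methods say what a number marks. Same-numbered correlations were 0.108, 0.0729 and 0.229 for H3K18cr and -0.207, 0.0464 and -0.134 for H3K18ac, and not every library correlated best with its own number, which also holds for RNA. The interaction called 0 peaks in every setting run, the block included. Among values of single genes and peaks, 364 kept direction and side of the threshold, 5 moved, 22 newly passed, 28 no longer passed and 18 reversed. Lengths by gene interval were not run, since exon models were given. Low counts limit PDK4 (11 reads in 1 library).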
